A study of Homo sapiens with 3 samples.

Results

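The proteasome genes were examined in Molm13, a human acute myeloid leukemia cell line with an internal tandem duplication in FLT3. They were chosen by name: every gene whose symbol in the deposited comparison table begins with PSMA, PSMB, PSMC, PSMD, PSME or PSMG and a number, without pseudogenes and antisense genes. This gave 46 genes of the 25702 in the count files, on 17 chromosomes. The comparison table names 15413 of the 25702 genes, and a gene outside it could not be chosen. Of the 46, 45 passed a filter of at least 10 counts in at least 1 library, as did 12879 genes in all, and PSMB9 did not pass. The thymus form PSMB11 and the testis form PSMA8 have no symbol in the comparison table, so they are not among the 46, and both had 0 counts in each library, which allows up to 3 counts, or 1.25e-05% to 1.32e-05% of a library. PSMC3IP fits the letters of the name but encodes a recombination factor that binds PSMC3. It is no proteasome subunit, but the rule takes it, so it is among the 45 genes counted, in a class of its own.

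Asynchronous Molm13 cells in RPMI medium with 10% serum received DMSO, the vehicle, or 50 nM or 100 nM pyrvinium for 6 h, with 1 library per condition. Pyrvinium pamoate is an anthelmintic that accumulates in mitochondria, and the question was what it does to the transcriptome of these cells. The libraries were strand-specific poly(A) RNA libraries with 22677038 to 24075123 counts. All 7 markers of a myeloid leukemia line, CD33, FLT3, SPI1, MPO, CSF1R, HOXA9 and MEIS1, passed the filter, and their summed counts were 14873 in DMSO, 17024 at 50 nM and 19350 at 100 nM, of which FLT3 alone had 6304, 9012 and 11181. Whether this bears on the proteasome genes was not tested. Of markers of other cell types, CD3E (T cells) and EPCAM (epithelium) had 0 counts in each library, ALB (hepatocytes) had 0, 2 and 0, and COL1A1 (fibroblasts) had 1, 4 and 9, and none of these passed the filter. With 1 library per condition, no difference has a replicate check, and each 95% interval and p-value covers counting error only and compares the libraries, not the conditions. In bulk RNA, fewer cells of a type and less RNA per cell cannot be told apart.

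The proteasome degrades proteins that carry ubiquitin chains. Its core particle is a barrel of outer alpha rings, which form the gate, and inner beta rings, which hold the proteolytic sites. A cap made of a ring of ATPases and a set of non-ATPase subunits binds the ubiquitin chain, removes it, and unfolds the protein into the core. Dedicated chaperones build these parts, and alternative activators can take the place of the cap. Cells exposed to interferon exchange the catalytic beta subunits for immunoproteasome subunits. The transcription factor NFE2L1 raises many proteasome genes together when proteasome activity is short, through antioxidant response elements in their promoters.

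Because the elements bound by NFE2L1 are the shared regulatory sequence for which proteasome promoters are best known, the promoters were read for them first. Promoter windows from RefSeq (GRCh38.p14, 250 bases before to 50 bases after each start site) were found for 40 of the 46 genes. Windows for PSMA7, PSMB1, PSMB6, PSMB7, PSMD4 and PSMG3 were not used here. The element core TGACNNNGC, on either strand, was present in 15 of the 40 (37.5%) and in 16.1% of all 27305 genes with a window. The 27305 genes were not limited to those with counts here, and a gene was included if any of its windows matched. No share among the tested genes alone was taken, here or for the other motifs. The sites in the upstream part of 5 promoters, from the genes PSMA4, PSMB3, PSMC5, PSMD12 and PSME1, are shown with the core in capitals and 10 flanking bases on each side, on the strand of the gene, which is minus for PSMD12 and plus for the others. They lie at chr15:78540650-78540678, chr17:38752627-38752655, chr17:63827654-63827682, chr17:67366724-67366752 and chr14:24136098-24136126 in the same order. For PSMC5 the core lies on the other strand, so its capitals read as the reverse complement.
PSMA4: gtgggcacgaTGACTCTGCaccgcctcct
PSMB3: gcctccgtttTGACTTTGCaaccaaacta
PSMC5: gaccggatctGCTGTGTCAgcgccgccct
PSMD12: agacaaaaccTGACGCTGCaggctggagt
PSME1: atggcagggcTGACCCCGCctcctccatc

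The related core TGAGNNNGC was present in 13 of the 40 genes (32.5%) and in 21.6% of all genes with a window. The CCAAT box, bound by NFY, was present in 20 genes (50.0%) against 39.7%. The core of interferon response elements, TTTC repeated after any 2 bases, was present in 7 genes (17.5%), namely PSMA4, PSMB4, PSMB8, PSMB10, PSME1, PSME2 and PSMG4, against 4.38% of all genes. The heat shock element core GAANNTTC was present in 1 of the 40 genes (2.5%), PSMC3IP, against 8.21%. The composite sites of ATF4 with CEBP, ATTGCATCA and TGATGCAA, were present in 0 of the 40 genes, against 0.293% and 1.08%. Each match is a match of letters on either strand, not evidence of binding, and the cores TGACNNNGC and TGAGNNNGC may overlap. The 14 tested genes with TGACNNNGC had a median log2 fold change (log2FC) of -0.17 at 100 nM against DMSO, and the 25 tested genes with a window and no match had -0.15. The ranges, -0.35 to 0.06 and -0.44 to 0.00, covered each other for the most part.

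Proteasome genes were abundant in all 3 libraries. Levels between genes are given per exon length as TPM, that is counts divided by exon length and scaled to the same total in each library. Without PSMB9, the 45 genes ranged from 19.1 to 591 TPM in DMSO with a median of 183 TPM, and 35 of them lay in the top 10% of genes with a count. Together they took 0.667% of all counts in DMSO, with a 95% Wilson interval from 0.664 to 0.670. The share was 0.642% at 50 nM (0.639 to 0.645). At 100 nM it was 0.597% (0.593 to 0.600), and the 3 intervals do not overlap.

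The core subunits stood highest. In DMSO the median level was 426 TPM for the 7 alpha ring genes, 313 TPM for the 7 constitutive beta ring genes, 184 TPM for the 11 non-ATPase cap genes, 155 TPM for the 6 ATPases and 63.3 TPM for the 7 assembly chaperones. PSMB1, a structural beta subunit, led with 591 TPM (95% Poisson interval 577 to 606), followed by PSMA3 with 582 TPM (568 to 596), and these intervals overlap. PSMA1 was the lowest alpha subunit at 188 TPM and PSMB5 the lowest constitutive beta subunit at 166 TPM, so the subunits of 1 ring, which the particle holds in equal numbers, spanned 3.09-fold in the alpha ring and 3.57-fold in the beta ring at the RNA level. Of the 45 neighbouring pairs in the order of levels, 29 had overlapping intervals in DMSO, 29 at 50 nM and 27 at 100 nM.

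Among the ATPases, PSMC1 stood at 30.0 TPM, whereas the other 5 ranged from 94.4 TPM (PSMC6) to 218 TPM (PSMC3). RefSeq lists 13 pseudogenes of PSMC1, the most of any gene here, and 52 over 21 of the 46 genes. Whether reads that match several places were counted is not given in the sources used here, so the level of PSMC1 is uncertain, and the part of its pseudogenes was not tested.

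**Figure D1:**
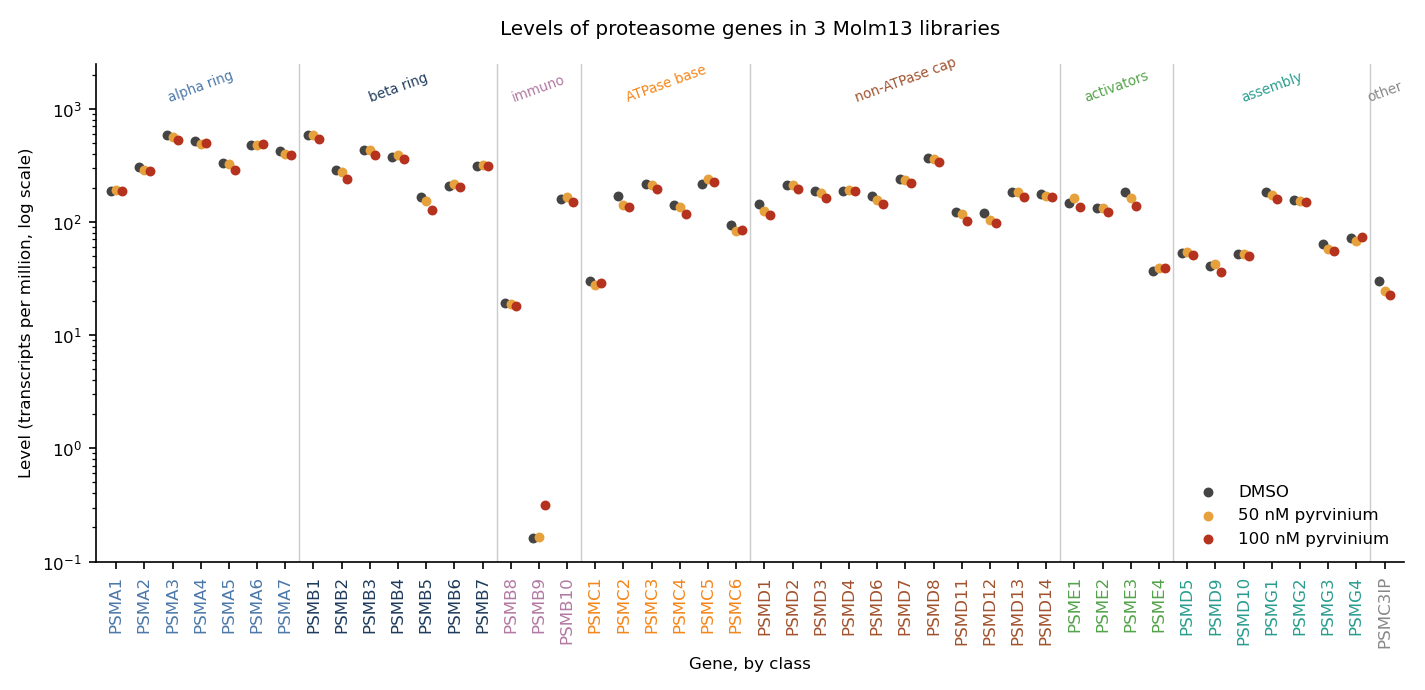
Level of each of the 46 genes in TPM (log axis) in the DMSO, 50 nM and 100 nM libraries, 1 point per library, grouped by class. Core subunits sit between 129 and 591 TPM, PSMB8 near 19 TPM, and PSMB9 below 1 TPM in each library.

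At 100 nM against DMSO, transcripts of the proteasome were lower by small amounts, with a median below 0 in every class. Of the 45 genes tested, 42 had a log2FC below 0, and the median was -0.15, so that the middle gene fell by 10.2%, with an interquartile range of -0.24 to -0.09. All 12879 genes had a median of 0.00 (-0.0042), and 50.7% of them lay below 0. The exact binomial test with Benjamini-Hochberg adjustment over all genes, at an adjusted p of at most 0.05, found 32 of the 45 lower (71.1%) and 0 higher. Without PSMC3IP, 31 of 44 were lower (70.5%). Among all genes tested, 22.5% were lower and 21.2% higher by the same rule.

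The proteasome genes are well counted, which makes small differences easier to call. The same shares were therefore taken among genes above a floor of depth and within a range of length. These are called genes of similar depth and length here, but their depth was not matched. The floor was a mean of 500 counts, whereas the 45 genes averaged 395 to 7299 counts. Among 6267 genes averaging 500 counts or more and with an exon length within the range of the 45 genes (754 to 7099 bases), 33.4% were lower and 25.1% higher, and the median log2FC was -0.03. None of the 45 reached 2-fold in either direction, against 0.512% of all genes lower and 1.84% higher at 2-fold. Among the genes of similar depth and length, only 0.0638% were lower and 0.303% higher at 2-fold. With a threshold of 0.32 on the log2 scale in place of 2-fold, 6 of the 45 were called, all lower, against 8.4% of all genes lower: PSME3, PSMB5, PSMC2, PSMD1, PSMD12 and PSMC3IP, the last of which is no subunit. With a spread between replicates assumed at a coefficient of variation of 0.1, edgeR's exact test called 0 of the 45 at an adjusted p of at most 0.05, against 0.559% of all genes lower. At an unadjusted p it called 1, PSME3, against 4.39% of all genes lower.

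**Figure D2:**
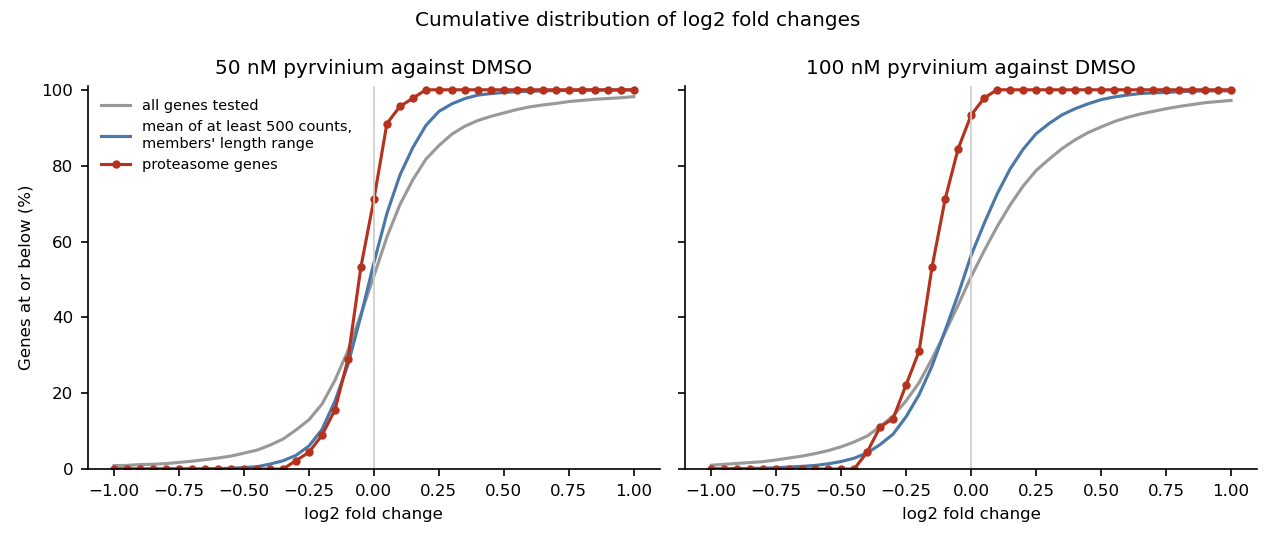
Share of genes (%) at or below each log2FC at 50 nM and 100 nM against DMSO, for the 45 proteasome genes, all 12879 genes tested, and the subset averaging 500 counts or more within the same range of exon length. At 100 nM, 93.3% of the proteasome genes lie at or below 0, against 50.7% of all genes and 56.3% of that subset. At or below -0.45 lie 0% of the proteasome genes, 7.14% of all genes and 2.86% of that subset.

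At 50 nM the proteasome genes stood closer to DMSO. Of the 45, 32 had a log2FC below 0, with a median of -0.06, and 12 were lower and 2 higher by the exact binomial test at an adjusted p of at most 0.05. That is 26.7% lower, against 14.8% of all genes lower and 13.9% higher, and 22% lower in the genes of similar depth and length. The 2 higher genes were PSMC5 and PSME1. Without PSMC3IP, 11 of 44 were lower. The comparison of 100 nM with 50 nM gave a median of -0.11, with 23 lower and 0 higher, against 8.89% and 8.34% of all genes. These comparisons share libraries with each other, so they are not independent. No gene reached 2-fold at 50 nM, where 0.28% of all genes were lower and 0.776% higher at 2-fold, or between the doses, where the shares were 0.318% and 0.303%. In the genes of similar depth and length these shares were 0.016% and 0.0479% at 50 nM, and 0% and 0.016% between the doses.

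**Figure D3:**
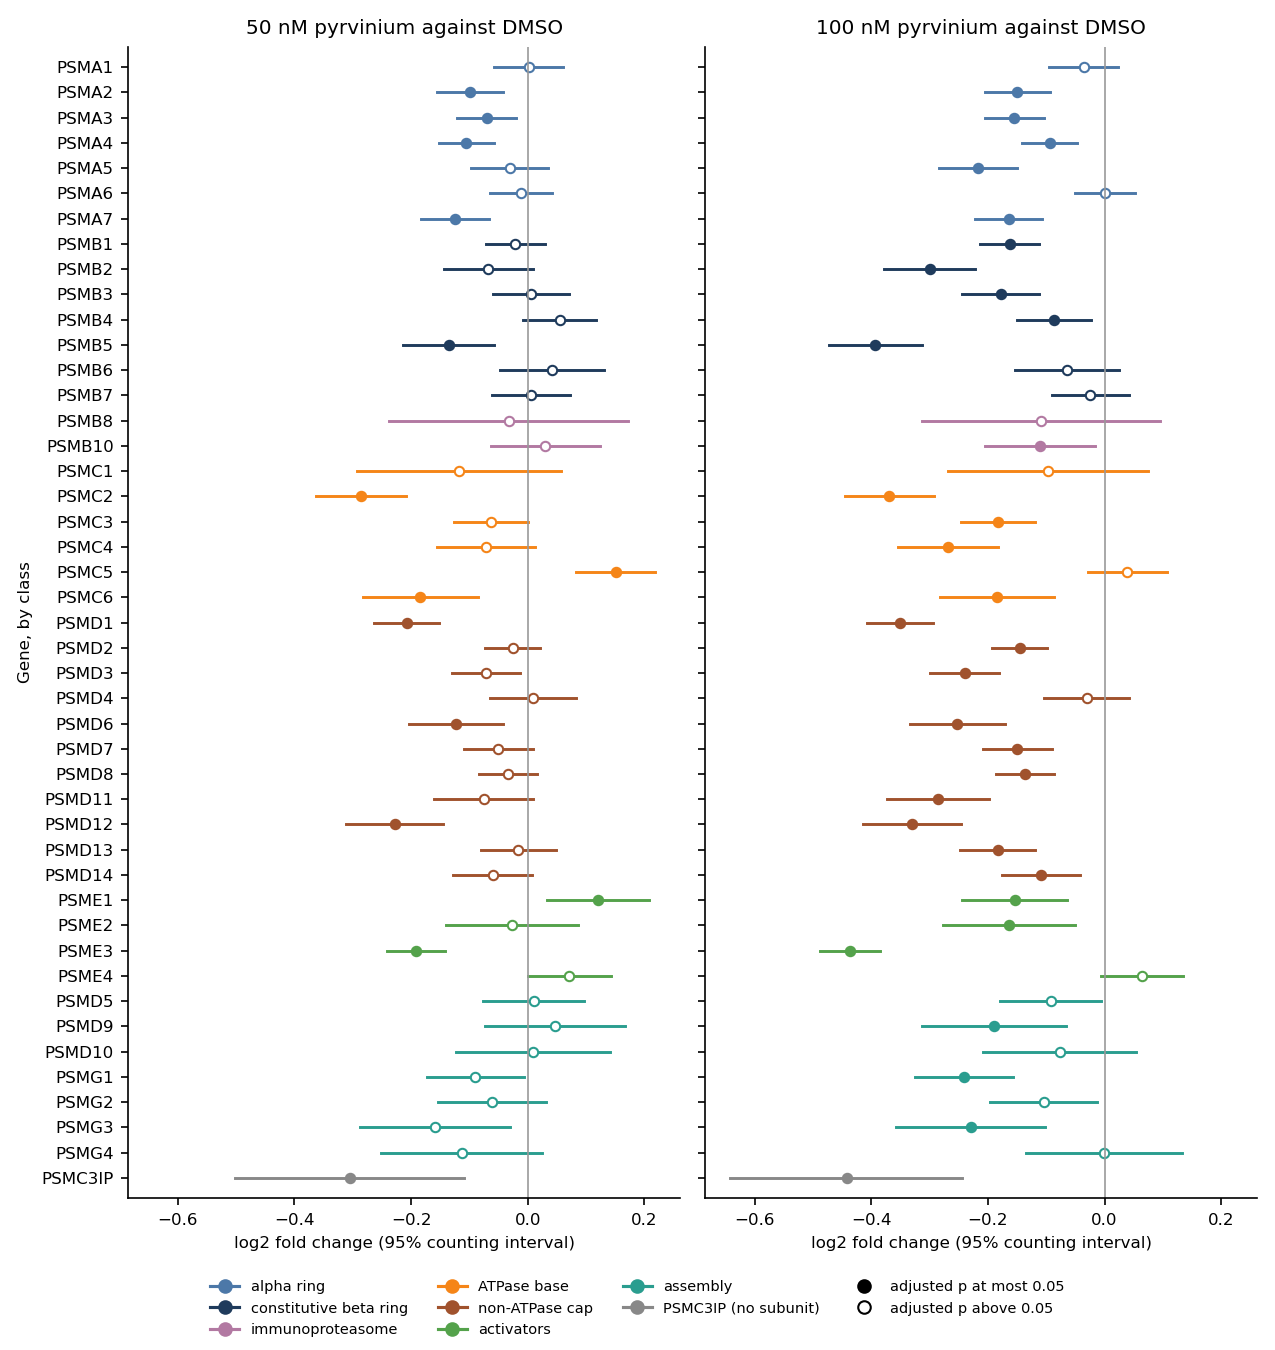
Log2 fold change of each of the 45 tested genes at 50 nM (left) and 100 nM (right) against DMSO, with the 95% counting interval as a bar, coloured by class. Filled points have an adjusted p of at most 0.05. At 100 nM 34 intervals lie below 0, none lies above 0, and 11 span it.

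In the alpha ring, 5 of 7 genes (71.4%) were lower at 100 nM, against 33.4% of the genes of similar depth and length. The summed counts of the ring had a log2FC of -0.11 (interval -0.13 to -0.09). PSMA5 changed most, with 3828 counts in DMSO, 3672 at 50 nM and 3432 at 100 nM, which gave a log2FC of -0.22 (interval -0.28 to -0.15) at the higher dose. PSMA2, PSMA3, PSMA4 and PSMA7 fell by 0.09 to 0.16 on the log2 scale. PSMA6 had 5835, 5675 and 6080 counts in the same order, and its log2FC at 100 nM was 0.00 (interval -0.05 to 0.05). PSMA1 stood at -0.04 (interval -0.09 to 0.02). At 50 nM, PSMA2, PSMA3, PSMA4 and PSMA7 were lower, by -0.12 to -0.07. That is 4 of 7 genes (57.1%), against 14.8% of all genes and 22% of those of similar depth and length.

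In the constitutive beta ring, the 3 catalytic subunits gave different values. PSMB5 (Entrez 5693, chromosome 14 of hg19 from 23495060 to 23504429), which carries the chymotrypsin-like site and is the main target of bortezomib, had 2875 counts in DMSO, 2565 at 50 nM and 2280 at 100 nM. Its log2FC was -0.14 at 50 nM and -0.39 (interval -0.47 to -0.31) at 100 nM, with an exact binomial adjusted p of 4.3e-21 at the higher dose. PSMB6 (Entrez 5694, chromosome 17 from 4699457 to 4701790), the caspase-like subunit, had 2053, 2071 and 2046 counts, and PSMB7 (Entrez 5695, chromosome 9 from 127115744 to 127177721), the trypsin-like subunit, had 3670, 3610 and 3757. Their log2FC values at 100 nM were -0.06 (interval -0.15 to 0.03) and -0.02 (interval -0.09 to 0.04), both including 0. The interval of PSMB5 thus lies below those of the other catalytic subunits, and the difference itself was not tested. In the files, 389 of the 984 exon bases of PSMB7 overlap exons of a gene on the opposite strand, LOC100129034, which had 879, 901 and 1070 counts, and the strand setting of the counting is not given in the sources used here.

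The structural beta subunits PSMB1, PSMB2, PSMB3 and PSMB4 were all lower at 100 nM. PSMB2 stood at -0.30 (2903, 2715 and 2456 counts) and the other 3 between -0.18 and -0.09. With PSMB5, 5 of the 7 genes of the ring (71.4%) were lower, against 33.4% of the genes of similar depth and length. A gene on the opposite strand that overlaps 366 of the 925 exon bases of PSMB4 had 1 to 4 counts. At 50 nM none of these 4 passed the test, and PSMB5 was the 1 lower gene of the 7 in the ring (14.3%). Of the genes of similar depth and length, 22% were lower at 50 nM. The summed counts of the ring stood at -0.01 at 50 nM (interval -0.04 to 0.01).

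The immunoproteasome subunits differed from each other by their level more than by dose. PSMB8 (Entrez 5696, chromosome 6 from 32808494 to 32812712), the counterpart of PSMB5, had 405, 388 and 391 counts, and its log2FC at 100 nM was -0.11 (interval -0.31 to 0.09). PSMB10 (Entrez 5699, chromosome 16 from 67968407 to 67970753), the counterpart of PSMB7, had 1862, 1864 and 1797 counts. It stood at -0.11 (interval -0.20 to -0.02), with an exact binomial adjusted p of 0.0494, which DESeq2 size factors, total counts or a filter of at least 1 count moved past 0.05. PSMB9 (Entrez 5698, chromosome 6 from 32821938 to 32827628), the counterpart of PSMB6, had only 2, 2 and 4 counts, too few to compare.

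Within a library, the ratio of counterparts does not depend on the scaling. Per exon length, PSMB10 stood at 51.0% of PSMB7 in DMSO (95% Clopper-Pearson interval 48.2 to 53.9), 51.9% at 50 nM and 48.1% at 100 nM (45.4 to 50.9). PSMB8 stood at 11.6% of PSMB5 in DMSO (10.4 to 12.8) and at 12.4% and 14.1% in the 50 nM and 100 nM libraries (upper and lower limits at the higher dose 15.7 and 12.6). PSMB9 stood at 0.0768% of PSMB6 in DMSO (0.00929 to 0.278), 0.0761% at 50 nM and 0.154% at 100 nM (0.0419 to 0.395). The intervals of DMSO and 100 nM overlap for each of the 3 pairs, for PSMB8 and PSMB5 only from 12.6% to 12.8%. Such overlap is no test of a difference, and the change of a ratio between libraries was not tested. PSMB8 shares 226 exon bases with PSMB8-AS1 on the opposite strand, which had 19 to 22 counts.

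**Figure D4:**
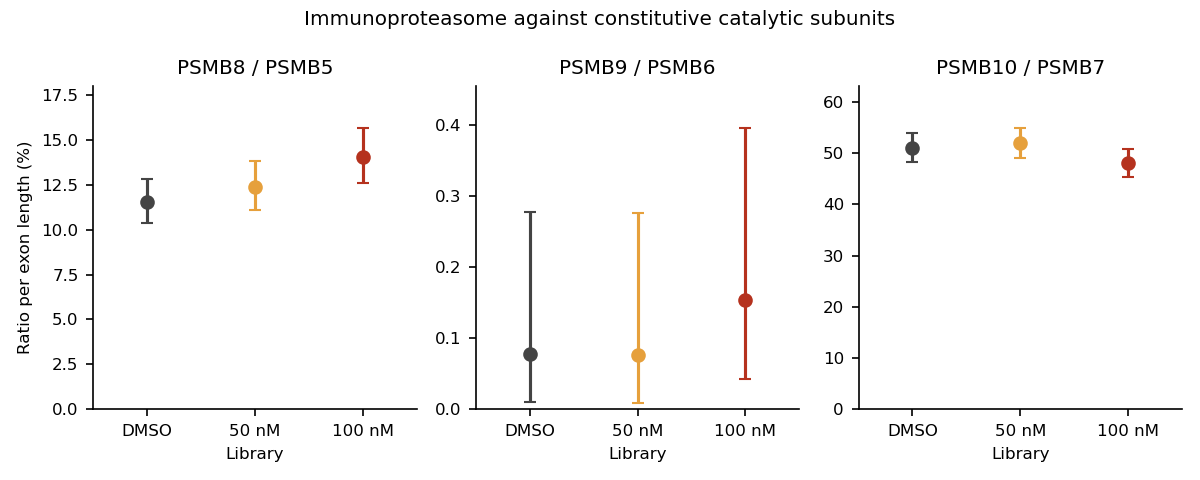
Ratio of each immunoproteasome subunit to its constitutive counterpart per exon length (%) in the DMSO, 50 nM and 100 nM libraries, with 95% Clopper-Pearson intervals as bars and a separate axis for each pair. PSMB10 stands near 50% of PSMB7, PSMB8 between 11.6% and 14.1% of PSMB5, and PSMB9 below 0.2% of PSMB6.

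PSMB9 lies head to head with TAP1, a subunit of the transporter that carries peptides to MHC class I molecules, with 189 bases between them in hg19. TAP1 was also scarce, with 44, 39 and 49 counts. The start sites of TAP1 in RefSeq lie 488 and 1431 bases from that of PSMB9 (GRCh38.p14). The 250 bases before the start site of PSMB9, on the side of TAP1, are shown because this subunit alone among the 46 genes was nearly without counts. The run is chr6:32853942-32854191 of GRCh38.p14 on the plus strand. The capitals mark a CCAAT box and a TGACNNNGC core on the other strand.
PSMB9: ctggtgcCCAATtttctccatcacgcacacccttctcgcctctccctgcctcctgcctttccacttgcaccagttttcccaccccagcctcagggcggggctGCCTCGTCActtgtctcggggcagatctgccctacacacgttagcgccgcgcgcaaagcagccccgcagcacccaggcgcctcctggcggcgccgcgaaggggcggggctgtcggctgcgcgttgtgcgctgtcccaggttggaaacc

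In the base of the cap, 4 of the 6 ATPases (66.7%) were lower at 100 nM, against 33.4% of the genes of similar depth and length. PSMC2 (Entrez 5701, chromosome 7 from 102988089 to 103008656) had 3113 counts in DMSO, 2503 at 50 nM and 2511 at 100 nM, which gave -0.29 and -0.37 (interval at 100 nM -0.45 to -0.29). Both pyrvinium libraries lay below DMSO. PSMC6 likewise stood at -0.18 at both doses. PSMC3 and PSMC4 had -0.06 and -0.07 at 50 nM, where neither passed, and -0.18 and -0.27 at 100 nM, where both did. PSMC5 (Entrez 5705, chromosome 17 from 61904810 to 61909387) was higher at 50 nM. It had 3397, 3696 and 3635 counts, which gave 0.15 at 50 nM (interval 0.08 to 0.22, exact binomial adjusted p of 1.1e-04) and 0.04 at 100 nM (interval -0.03 to 0.11). FTSJ3, on the opposite strand, overlaps 65 of its 1320 exon bases and had 3861, 3374 and 3152 counts.

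The non-ATPase cap had the highest share of lower genes among the classes of 4 or more. Of its 11 genes 10 (90.9%) were lower at 100 nM, against 33.4% of the genes of similar depth and length. Its summed counts had a log2FC of -0.19 (interval -0.21 to -0.17), and those of the activators -0.24 (interval -0.27 to -0.20). PSMD1 (Entrez 5707, chromosome 2 from 231921578 to 232037541), the scaffold that docks ubiquitin receptors, had 5690, 4831 and 4648 counts, which gave -0.21 at 50 nM and -0.35 (interval -0.41 to -0.29) at 100 nM. The other scaffold, PSMD2, had 7424, 7149 and 6990 counts and stood at -0.15 at 100 nM. PSMD12, a structural subunit of the lid, had 2571, 2151 and 2130 counts, with -0.23 at 50 nM and -0.33 at 100 nM. PSMD1 and PSMD12 thus already lay below DMSO at 50 nM, where PSMD6 was the only other member of this class to pass. That is 3 of 11 genes (27.3%) lower at 50 nM, against 22% of the genes of similar depth and length.

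Of the remaining lid and base subunits, PSMD3, PSMD6, PSMD7, PSMD8, PSMD11 and PSMD13 fell by 0.14 to 0.29 on the log2 scale at 100 nM, and PSMD14, the deubiquitinase that removes the chain, stood at -0.11 (interval -0.18 to -0.04). PSMD4, an intrinsic ubiquitin receptor, had 3009, 2968 and 3068 counts and stood at -0.03 (interval -0.10 to 0.04). For PSMD7, 1000 of its 1662 exon bases overlap a gene on the opposite strand, which had 43 to 52 counts.

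Among the activators, PSME3 (Entrez 10197, chromosome 17 from 40985423 to 40995777), which encodes a nuclear activator that works without ubiquitin, showed the largest fall of any proteasome subunit or chaperone. It had 7017 counts in DMSO, 6024 at 50 nM and 5402 at 100 nM, which gave -0.19 and -0.44 (interval at 100 nM -0.49 to -0.38) and an exact binomial adjusted p of 3.05e-61 at 100 nM. It fell by 26.1%, with the 50 nM library between the others.

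PSME1 and PSME2, the interferon-inducible activator pair, lie 4397 bases apart on chromosome 14 in hg19. PSME1 had 2066, 2201 and 1934 counts, that is 0.12 at 50 nM (interval 0.03 to 0.21, exact binomial adjusted p of 0.027) and -0.15 at 100 nM (interval -0.24 to -0.06), so its highest library was 50 nM. PSME2 had 1318, 1268 and 1226 counts and stood at -0.16 at 100 nM. PSME4, an activator linked to histone turnover, had 3124, 3217 and 3403 counts and stood at 0.06 at 100 nM (interval -0.01 to 0.14), the highest value among the 45.

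The assembly chaperones had the smallest median change of the classes with 4 or more genes, -0.10 at 100 nM. Of the 7, 3 were lower (42.9%), against 33.4% of the genes of similar depth and length. Their summed counts stood at -0.14 (interval -0.18 to -0.10), while those of the alpha ring changed less, at -0.11. PSMG1 and PSMG2 form a pair that starts the alpha ring. PSMG1 had 2467, 2272 and 2174 counts and stood at -0.24 (interval -0.33 to -0.16), and PSMG2 had 1962, 1844 and 1901 counts and stood at -0.10 (interval -0.20 to -0.01) without passing after adjustment. PSMG3 and PSMG4 form the other pair. PSMG3 had 1067, 937 and 948 counts and stood at -0.23 (interval -0.36 to -0.10), and PSMG4 had 905, 820 and 942 counts and stood at 0.00 (interval -0.13 to 0.13), its sign turning with the scaling. In each pair, then, 1 partner passed the test and the other did not, and the difference between partners was not tested.

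The chaperones of the cap base are PSMD5, PSMD9 and PSMD10. PSMD9 had 1131, 1145 and 1033 counts and stood at -0.19 (interval -0.31 to -0.07). PSMD5 had 2162, 2134 and 2112 counts and stood at -0.09, and PSMD10, also known as gankyrin, had 953, 940 and 941 counts and stood at -0.08, and neither passed. At 50 nM none of the 7 assembly genes passed, where 22% of the genes of similar depth and length were lower and 18.3% higher.

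PSMC3IP had 484, 384 and 371 counts, which gave -0.30 at 50 nM and -0.44 (interval -0.64 to -0.24) at 100 nM. Its exons share 774 of 1354 bases with MLX on the opposite strand, which had 2076, 2020 and 1967 counts. Without PSMC3IP the median of the other 44 genes at 100 nM was again -0.15.

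Genes that serve the proteasome under other names were set beside these. Of 12 proteasome factors without a PSM subunit symbol of the chosen kind, 7 were lower and 1 higher at 100 nM at an adjusted p of at most 0.05, with a median log2FC of -0.11. Of all genes tested, 22.5% were lower and 21.2% higher, and of those of similar depth and length 33.4% and 25.1%. POMP, the chaperone that completes the beta ring, had 5175, 4548 and 4384 counts and stood at -0.30 (interval -0.36 to -0.24). ADRM1, a ubiquitin receptor of the cap, had 2416, 2069 and 2288 counts and stood at -0.14. ZFAND5, a proteasome-binding activator, had 1905, 1693 and 1686 counts and stood at -0.23. The higher gene was ECPAS, a scaffold that binds core and cap, at 0.15.

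Genes of the route that controls proteasome genes lay on both sides of 0. NFE2L1 had 2917, 3008 and 3476 counts and stood at 0.19 (interval 0.12 to 0.27) at 100 nM. In the list of 6 genes, 4 were higher (NFE2L1, NFE2L2, NGLY1 and SEL1L, at 0.09 to 0.19) and 2 were lower, VCP at -0.26 and DDI2, the protease that activates NFE2L1, at -0.29, where 21.2% of all genes were higher and 22.5% lower. VCP had 10000, 9106 and 8718 counts, and DDI2 had 354, 350 and 301. At 50 nM only NGLY1 was higher and only VCP lower, where 13.9% of all genes were higher and 14.8% lower. NFE2L1 is controlled after translation, which RNA counts do not measure.

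Of genes for ubiquitin, its activating enzymes and the shuttle factors that bring ubiquitinated proteins to the proteasome, the following are given singly. UBB and RPS27A, which encode ubiquitin, fell by 0.19 and 0.07 on the log2 scale at 100 nM. UBQLN4, a shuttle for mislocalized proteins, had 2105, 1787 and 1605 counts and stood at -0.45 (interval -0.54 to -0.36). UBA6, an activating enzyme, had 2172, 1856 and 1932 counts and stood at -0.23, and UFD1, a cofactor of VCP, had 1288, 1130 and 1102 and stood at -0.28. All 5 were lower at 100 nM by the exact binomial test at an adjusted p of at most 0.05. BAG6, a chaperone for mislocalized proteins, had 1501, 1462 and 1577 counts and stood at 0.01 (interval -0.09 to 0.12).

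Of the partners of the immunoproteasome in antigen presentation, IRF1, an interferon-induced activator of PSMB9 and TAP1, had 367, 409 and 494 counts and stood at 0.37 (interval 0.17 to 0.57) at 100 nM, where it passed the test, while PSMB9 stayed at 2 to 4 counts. NLRC5, an activator of MHC class I genes, had 1188, 1178 and 1092 counts and was lower, at -0.18 (interval -0.30 to -0.06). None of the partner genes named here reached 2-fold.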

How the data were processed

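RNA of 3 Molm13 libraries, 1 per condition, was analysed from counts. Paired reads were aligned by the authors with Rsubread (hg19), and the deposited values are raw counts per Entrez gene. The aligner version and the strand and multi-mapping settings of the counting are not given in the sources used here. The authors' table of EBSeq comparisons (posterior probabilities, fold changes and means) was used for its gene symbols only. Groups came from the sample titles.

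Library sizes were scaled with TMM over all genes (edgeR 4.0.16, R 4.3.3). Genes reaching 10 counts in any library were compared pairwise by a two-sided exact binomial test (scipy 1.17.1) with Benjamini-Hochberg adjustment over all 12879 genes, at an adjusted p of at most 0.05. The 2-fold threshold of the study was applied in addition. For log2 fold changes, 0.5 was added to each count. Intervals are 95% Clopper-Pearson intervals of the count ratio. A count of 3 is 1.25e-05% to 1.32e-05% of a library. EBSeq was not run. In simulated data for 100 nM against DMSO, 146 of 200 genes changed by 0.32 on the log2 scale were recovered at the adjusted p among 12738 genes, and 199 of 200 changed 2-fold among 12754 genes, with 5 and 12 unchanged genes called. The simulated counts held counting error only, as the test assumes. They therefore cannot show how many calls a spread between replicates would give.

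The genes and lists were chosen with earlier results of these data known. Values in every library are given for the catalytic subunits, activators, assembly chaperones, the 5 highest and 5 lowest changes at 100 nM among genes with at least 50 counts, and in the other lists for POMP, NFE2L1, ADRM1 and the 2 largest changes. Other genes were named after their values were seen. Some genes that this rule or the lists held are not reported here, and for the lists they belong to no count is given. Promoter sequences are from RefSeq. Protein sequences were not used here. Alternatives covered the scaling (size factors of DESeq2 1.42.0, total counts, or TMM leaving out mitochondrial genes), the count filter, the counts added (5), lower fold thresholds, and an assumed coefficient of variation in edgeR's exact test.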

Additional observations from a re-analysis of the deposited data

How the results depend on the processing

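Against TMM, the other scalings shifted the 3 comparisons by at most 0.0032 in log2 (total counts, 100 nM against DMSO), and under them, the other filters and 5 counts added, the counts of called proteasome genes stayed within 1.5 times their values and the medians of the classes kept their direction, except that of the immunoproteasome at 50 nM, which went from -0.0012 to 0.0018 (DESeq2 size factors), 0.0006 (total counts) and 0.03 (at least 1 count, which let in PSMB9). Calls depended on the fold and on the assumed spread. At a threshold of 0.32 on the log2 scale, 6 genes were called at 100 nM against DMSO in place of 0. With an assumed coefficient of variation of 0.1, 0.2 or 0.4, edgeR's exact test called 0 genes lower and 0 higher in each comparison, where counting error alone gave 32 lower at 100 nM, 12 lower and 2 higher at 50 nM, and 23 lower between the doses. At an unadjusted p of at most 0.05, a coefficient of 0.1 gave 1 gene at 100 nM and 0 at 50 nM. PSMG4 turned from -0.0010 to 0.000367 with DESeq2 size factors and to 0.00223 with total counts. Of single genes, PSMB10 at 100 nM was lost and PSMG2 at 100 nM and PSMG3 at 50 nM were gained under at least 1 alternative. The spread of levels among the 14 constitutive core subunits in DMSO was 3.70-fold by CPM and 3.57-fold per length. Leaving out PSMC3IP, a choice made after seeing the data, gave 31, 11 and 23 lower genes of 44 in the same order of comparisons. No paired analysis was possible because each condition has 1 library.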

Other observations

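Antisense and neighbouring transcripts that carry proteasome names were left out of the counts of proteasome genes. PSMA3-AS1 (Entrez 379025, chromosome 14 of hg19 from 58732083 to 58764855), which overlaps the locus of PSMA3, had 633 counts in DMSO, 751 at 50 nM and 911 at 100 nM. It stood, in log2 fold change, at 0.28 at 50 nM and 0.47 (interval 0.32 to 0.62) at 100 nM, with an exact binomial adjusted p of 3.3e-09 at 100 nM. PSMA3 itself had 6436, 6008 and 6023 counts and stood at -0.15 at 100 nM. The listed exons of PSMA3 do not overlap those of PSMA3-AS1 in the files. PSMG3-AS1 had 44, 44 and 63 counts and PSMD6-AS2 had 40, 38 and 37, and neither passed the test. PSMF1, an inhibitor of the core particle, had 3184, 3297 and 3434 counts and stood at 0.05 (interval -0.02 to 0.12) at 100 nM.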
